A study of Mus musculus and Rattus norvegicus with 80 samples.

Results

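The loci described here are the 560 mouse L1 loci that stand on the authors' list of elements with an intact second open reading frame (ORF2), out of 17019 different annotated L1 cores in the mouse files. A core is the stretch between the inner start and end annotated for a locus, and each was used once, whether or not it also stood on another list. In a figure legend the paper says that the thick part of its L1 annotation marks the open reading frame. It also gives full-length mouse L1s a greater length than the median core of 5000 bases on the full-length intact list. A core may therefore be the part with the reading frames, and the window around it may hold more of the element. Of the 560 cores, 404 also stood on the list of full-length L1s without intact reading frames and 156 stood on the intact-ORF2 list alone. None stood on the list of full-length L1s with intact reading frames, which held 2788 other cores. The counts are reads in the orientation of the L1 within a window of 700 bases upstream to 1000 bases downstream of the core (medians over the 560 members), and both mates of a fragment were counted. Coordinates are those of the files (mm10), with core lengths that include both end bases, so a shift of 1 base at the start is possible.

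L1 is the long interspersed retrotransposon that still moves in the mouse genome. A complete element has its own promoter in the 5′ region and encodes ORF1p, an RNA-binding protein, and ORF2p, which carries the endonuclease and the reverse transcriptase that copy the L1 RNA into new genomic sites. Many copies were truncated at their 5′ end when they were inserted, so a copy can keep a complete ORF2 without the promoter, and L1 sequence can also be present in RNA because it lies inside another transcription unit.

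All animals were C57BL/6 mice without a treatment or an engineered allele, and cytoplasmic polyadenylated RNA was sequenced from pieces of whole organs. In males, testes and livers were sampled at 1.9-3.6, 7.6 and 22.3 mo (3 mice at each age), brains at 7.6 mo (3 mice) and lungs at 7.6 mo (2 mice). In females, ovaries, brains and lungs were sampled at 2.2-3.2 mo (3 mice), 8-8.7 mo (4 mice) and 16.5 mo (2 mice), and uteri at the same ages (1, 3 and 2 mice). These 56 libraries are compared below, while the 12 male libraries of 12.8 mo (testes, livers, brains and lungs of 3 mice) were counted over other windows and are described apart. The tables hold L1 loci only, so the organ labels could not be checked against marker genes, and a difference between organs can come from more cells of a type or from more RNA per cell, which cannot be told apart. Mapped reads ranged from 8.45 M to 51.4 M per library. Windows with exactly 2 reads had at most 200 bases covered in every male library and at most 300 in every female one, so that sex and read length cannot be told apart.

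The members that stood on the intact-ORF2 list alone had shorter cores than those of the other lists. Their median core length was 4346 bases, against 4999 for the members that were also on the non-intact list and 5000 for the full-length intact list. Since a core need not span the whole element, these lengths do not show whether the elements themselves are shorter. Cores under 4500 bases made up 58.3% of the 156, 3.22% of the 404, 0.179% of the intact list and 6.82% of the 13671 remaining cores of the non-intact list. A length of exactly 3844 bases occurred in 13 members, and all 13 stood on the intact-ORF2 list alone. Among them were UID-14116 and UID-14377, which had the most reads of all members in organs other than the testis.

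**Figure D1:**
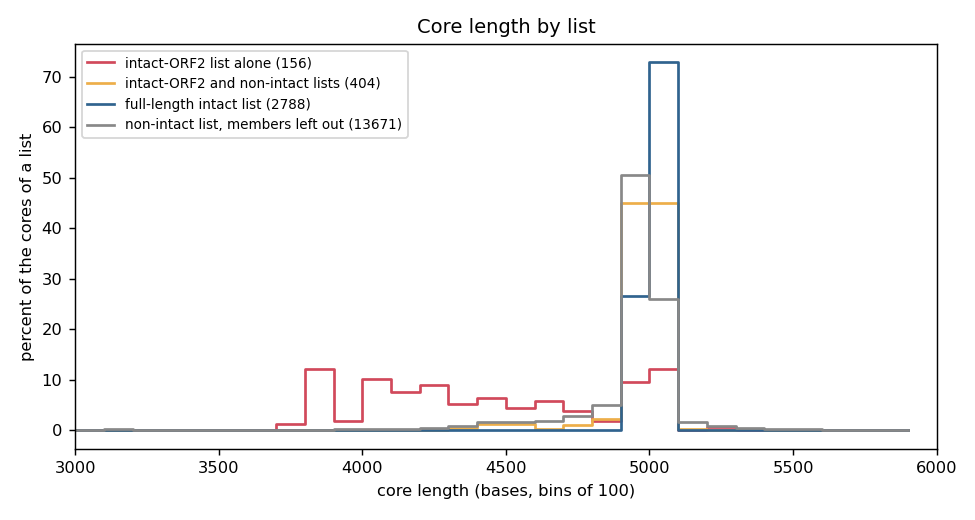
Core length (x axis, bases, in bins of 100) of the cores of each list, as percent of the cores of that list (y axis). The 156 cores of the intact-ORF2 list alone (red) spread below 4500 bases, whereas the other lists peak near 5000.

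The letters of the L1 cores are not shown, since no mouse genome was used here.

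The members were spread over all 21 chromosomes, with 61 on chromosome 1, 56 on X and 19 on Y. The cores of 156 members overlapped an annotated gene (27.9%, against 25.0% of all annotated cores), 74 of them on the strand of the gene and 86 against it, with 4 counted in both. Members in a gene on its own strand more often had a read in at least 1 of the 56 libraries (59 of 74, 79.7%) than members that overlapped only a gene of the other strand (47 of 82, 57.3%) or no gene (215 of 404, 53.2%). These shares are a description of the loci and were not tested. The same split over all annotated cores is not given here, so it cannot be called particular to the members. Without UID-14116, same-strand members held 43.2% of the member reads in uteri, 42.0% in female lungs, 39.1% in ovaries, 27.7% in livers, 22.9% in female brains, 19.2% in testes, 16.6% in male brains and 10.0% in male lungs. Some of these shares rest on few reads. Without UID-14116 the lung of male mouse 1209 had 20 member reads and that of mouse 1303 had 0. Livers had 0 to 21 such reads per library and uteri 8 to 32. Only 18 of the 560 windows contained an exon of the same strand, and they held 278 reads (4.82% of the member reads), 194 of them at UID-14128.

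Reads on the members were few. Over the 56 libraries, 5764 reads fell on them, 0.271% of all reads on annotated L1s, and 239 of the 560 members had none. At least 1 read was found for 321 members (57.3%), against 48.9% of the full-length intact list and 61.3% of the remaining non-intact list. On average a member had 10.3 reads over all libraries, an intact-list locus 10.7 and a remaining non-intact locus 153. Only reads with a single genomic location were kept, and the paper states that this works against the youngest, most similar L1s. The share of each window that such reads can reach was not computed. Few reads from little RNA and few reads from repeated sequence therefore cannot be told apart, also between the lists. In 721 of the 1088 pairs of a member and a library with reads (66.3%) there were only 1 or 2 reads, which is what a single fragment gives. Of the 560 members, 22 reached 10 reads in any library. A single locus, UID-14116, held 26.2% of all member reads, and the first 10 loci held 56.5%. Windows of 70 members overlapped that of another annotated L1 on the same strand, and the 396 reads in them can have been counted for more than 1 locus. The 19 members on chromosome Y had 2 reads in the 23 male libraries and 4 reads in 2 of the 33 female libraries, from animals that carry no Y.

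The largest number of members with reads was found in testes. Between 51 and 75 members had reads per testis (median 58, 9 libraries), against 9 to 27 per female brain (median 18), 4 to 25 per ovary (median 16), 11 to 18 per male brain, 3 to 13 per female lung (median 9), 4 to 15 per uterus, 1 to 11 per liver (median 5) and 1 or 6 in the male lungs. No other library reached the lowest testis. In total 214 members had reads in testes, 121 of them in no other organ, and 107 members had reads elsewhere but none in testes. A single fragment was enough for these counts, and 129 of the 321 members with reads had them in a single library. The same counts over all annotated cores are not given here, so these are a description only. In a testis 10.8% ± 1.41 (SD, n = 9) of the members had reads, between the 7.26% ± 1.11 of the full-length intact list and the 20.3% ± 2.25 of the remaining non-intact list. The same order held for the means of both brains and the ovaries (female brains 3.25% of members, 2.67% of the intact and 5.00% of the non-intact list). In livers, lungs and uteri the mean for members was the lowest of the 3 lists (livers 1.03%, 1.20% and 1.52%). These lists share libraries and depth and were compared as a description only.

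Summed over the members, 8.53 ± 2.22 reads per M mapped reads (RPM; SD, n = 9) were found in testes. The other organs had 3.19 ± 0.516 (male brains, n = 3), 3.13 ± 0.633 (female brains, n = 9), 2.78 ± 1.29 (ovaries, n = 9), 1.91 ± 1.01 (uteri, n = 6), 1.89 ± 0.111 (male lungs, n = 2), 1.19 ± 0.307 (female lungs, n = 9) and 0.649 ± 0.417 RPM (livers, n = 9). The lowest testis (4.84 RPM) was above every brain, uterus, lung and liver, and the highest ovary (5.14 RPM, 16.5 mo) was above that testis. Set against all L1 reads of the library, however, female brains had the largest share on members (0.656% ± 0.137), followed by testes (0.402% ± 0.0616), male brains (0.371% ± 0.0341) and ovaries (0.312% ± 0.126), while male lungs (0.0345% ± 0.00114) and livers (0.0487% ± 0.0237) had the smallest. The uteri of mice 1534 (1.91 RPM) and 1324 (1.01 RPM) were scaled with an identical number of mapped reads, and the size of 1 of these libraries may therefore be wrong. Without UID-14116, the testes had 8.23 ± 2.20 RPM and the next organ, the female brain, 1.75 ± 0.523.

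**Figure D2:**
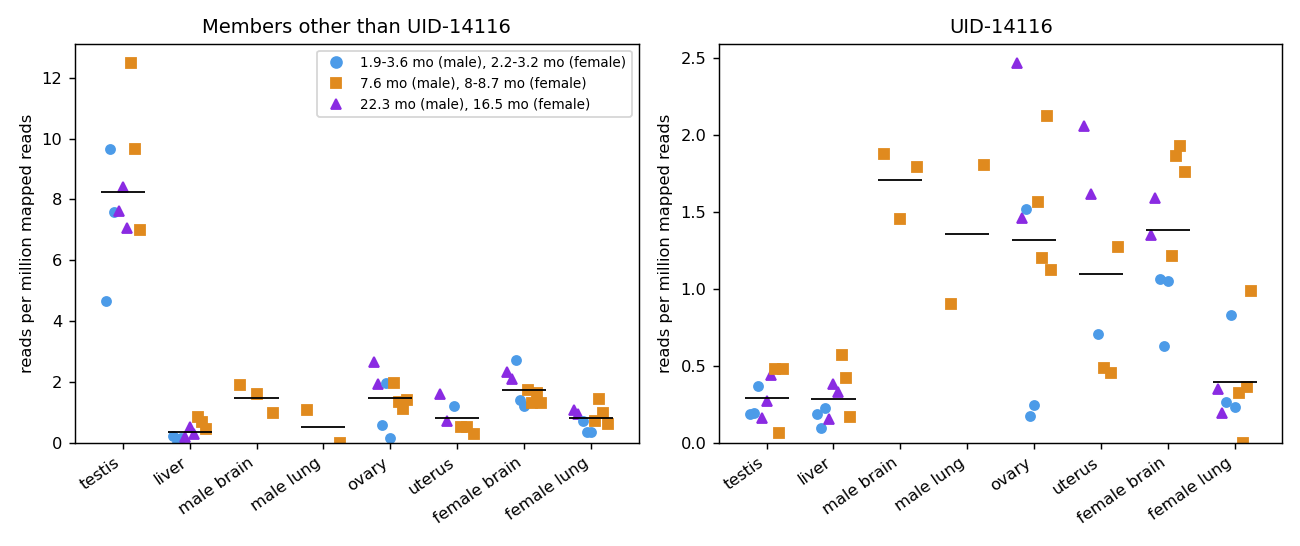
Reads per M mapped reads (y axes) in each of the 56 libraries by organ (x axes), summed over all members other than UID-14116 (left) and for UID-14116 (right). Each point is a library, colours and shapes give the age and black lines the mean of the organ. On the left every testis lies above every other library, and on the right livers (0.281) and testes (0.293) have the lowest means.

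UID-14116 (chr1:140043870-140047713, minus strand) was the only member with reads in all 8 organs. It lies inside Gm38019, annotated as a processed pseudogene on the same strand, and its window holds no exon of it. It had reads in 55 of the 56 libraries and led the members in every organ except the testis. At 7.6 mo the male brains had 82, 52 and 56 reads (1.88, 1.46 and 1.80 RPM), the lungs 17 and 31 (0.903 and 1.81 RPM), the livers 12, 10 and 3 (0.570, 0.419 and 0.167 RPM) and the testes 18, 2 and 14 (0.479, 0.0602 and 0.482 RPM). Brains and lungs lay above every testis, whereas livers and testes overlapped. Across female organs its level ranged from 0.171 to 2.47 RPM in ovaries (median of reads 47), from 0.630 to 1.93 RPM in brains, from 0.451 to 2.06 RPM in uteri and from 0 to 0.988 RPM in lungs. The 2 low ovaries were those of mice 1535 (2 reads) and 1540 (10 reads), both of the youngest group.

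The reads of UID-14116 were stacked on a short stretch. In the 3 male brains 340 to 400 of the 5543 bases of the window were covered by 52 to 82 reads, a median of 6.07 covered bases per read, and in the livers 66 to 212 bases were covered. In no library was more than 18.4% of its window covered. The largest covered share of any member's window was 25.7%, reached by UID-14439 in an ovary, and no member had 50% covered in any library. Only stretches where reads have a single location can be covered, and the share of such stretches in each window was not computed. Coverage of the other lists is not given here. The coverage plot shows that UID-14516 (chr9:25234206-25239206, plus strand, chosen after its values were seen) was narrower still, with 72 to 236 bases covered by 6 to 32 reads in testes. At UID-14128, by contrast, 8 to 34 reads covered 741 to 1514 bases.

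**Figure D3:**
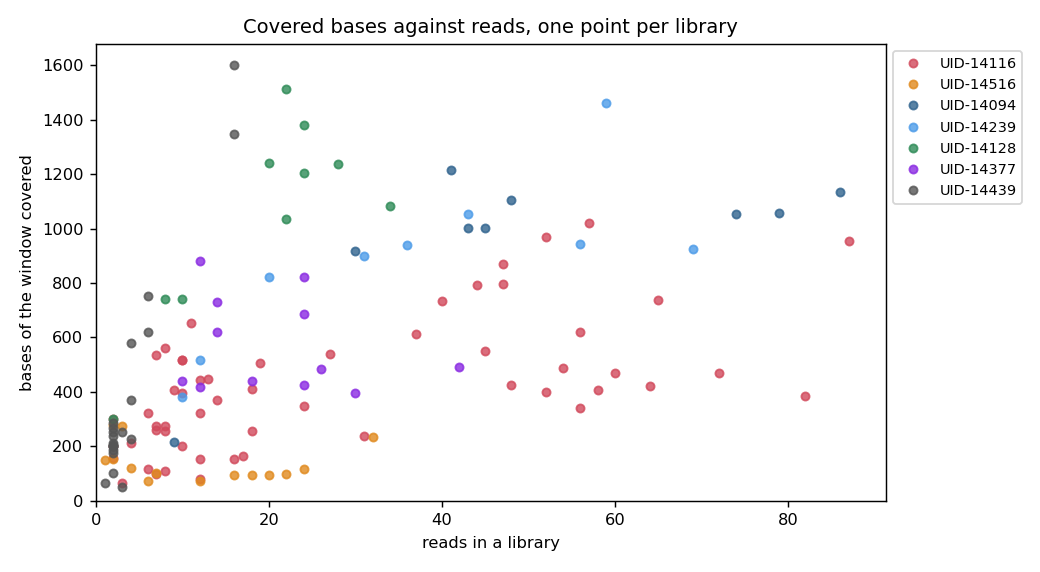
Bases of the window covered by reads (y axis) against reads (x axis) for 7 members, one point per library with reads. UID-14516 (orange) stays at or under 236 bases in testes with up to 32 reads, and UID-14128 (green) and UID-14439 (grey) reach the most bases at a given number of reads.

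The 3 leading members of the testis had almost no reads elsewhere. UID-14094 (chr1:84571614-84575790, plus strand) lies in an intron of Dner, a Notch-family ligand of neurons, against the strand of that gene. It had 86, 79 and 30 reads in the testes of 7.6 mo (2.29, 2.38 and 1.03 RPM), 9, 74 and 41 at 1.9-3.6 mo and 43, 48 and 45 at 22.3 mo, and not a single read in the 47 libraries of other organs. UID-14239 (chr15:69214018-69218372, minus strand, 15.6 kb from the nearest annotated gene) had 69, 59 and 31 reads at 7.6 mo, 10, 56 and 12 at 1.9-3.6 mo and 20, 43 and 36 at 22.3 mo, again with none in any other organ. UID-14128 (chr1:54244868-54249103, minus strand) had 34, 22 and 22 reads at 7.6 mo, 24, 24 and 20 at 1.9-3.6 mo and 10, 28 and 8 at 22.3 mo, and 2 reads in a single ovary. An annotated exon of the same strand overlaps its core and lies in its window, and the part of that exon in its reads was not tested. Every testis had reads at all 3 loci. Per kilobase of window, to allow for their lengths, the mean levels over the 9 testes were 0.236 ± 0.114, 0.169 ± 0.0954 and 0.0991 ± 0.0389 RPM per kilobase of window (RPKM), and UID-14116 reached 0.309 ± 0.0404 RPKM in male brains and 0.0529 ± 0.0280 in testes. Of the other testis loci, UID-14441 lies on the strand of Adam5, a member of the ADAM family of membrane proteins found on sperm, and had 78 reads, 74 of them in testes, and UID-14575 lies against the strand of Evl, an actin regulator, and had all of its 61 reads in testes (both chosen after their values were seen).

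The complementary case was UID-14377 (chr4:89540907-89544750, minus strand), which was found in the brain alone. Its 250 reads came from all 12 brains and from no other library. The male brains had 42, 18 and 10 reads (0.964, 0.505 and 0.321 RPM). The female brains had 14, 14 and 24 reads at 2.2-3.2 mo, 12, 24, 24 and 26 at 8-8.7 mo and 30 and 12 at 16.5 mo, a mean of 0.589 ± 0.184 RPM (n = 9). The nearest annotated gene was 77.4 kb away. UID-14564 (chr12:58660370-58665389, plus strand, 98.5 kb from the nearest gene) was also seen in brains only, with 10 reads in 2 of 3 male brains and 47 reads in 8 of 9 female brains. In all, 31 members had reads in brains and in no other organ. A single fragment was enough to be counted there, and the same count over all annotated cores is not given here.

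**Figure D4:**
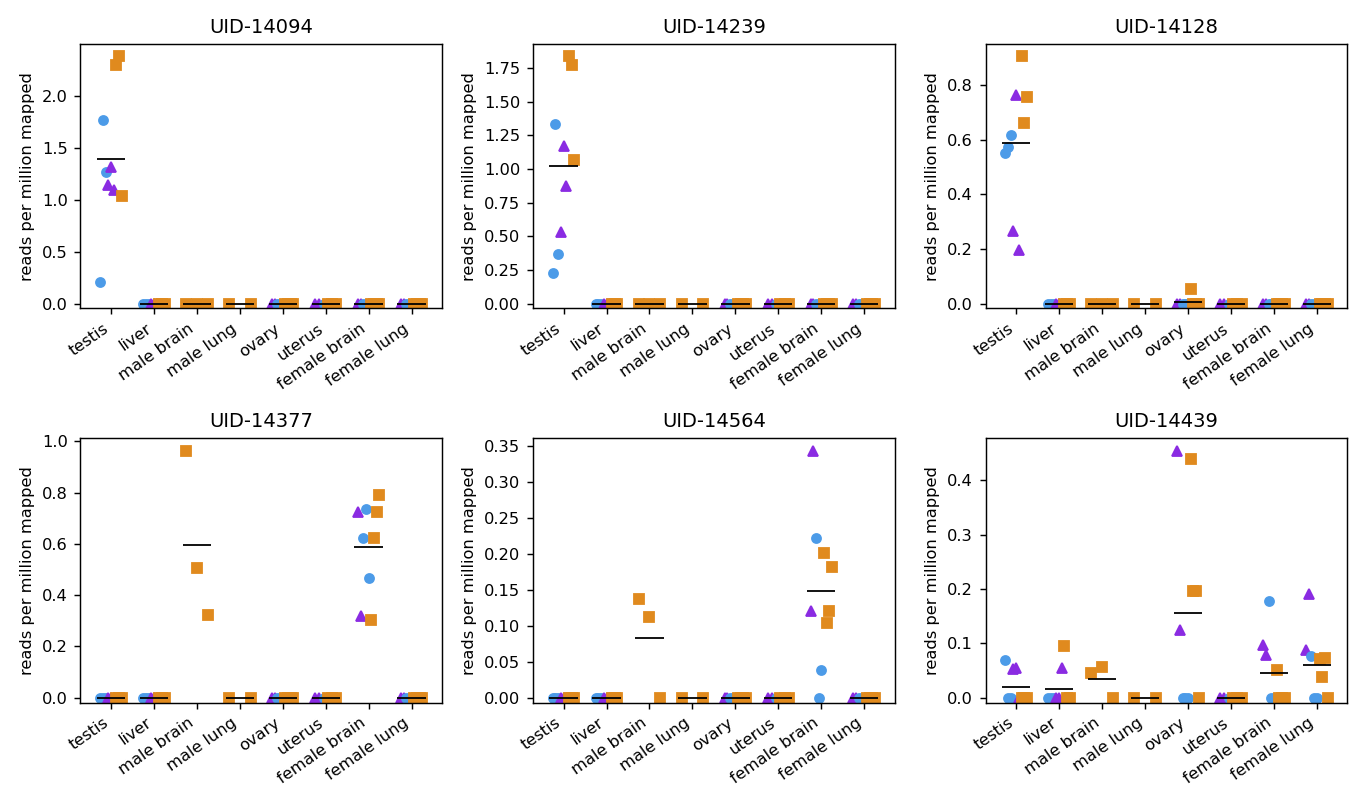
Reads per M mapped reads (y axes, scaled per locus) in each library by organ (x axes) for 6 named members, with colours and shapes by age as in the plot by organ (circles youngest, squares 7.6 to 8.7 mo, triangles oldest) and lines at the mean. The top row shows 3 loci found in testes, and the bottom row shows 2 loci found in brains and UID-14439.

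Other members recurred in ovaries and uteri at lower counts. UID-14439 (chr8:40839548-40844089, minus strand) had 6 to 16 reads in 3 of 4 ovaries at 8-8.7 mo and 16 and 4 reads at 16.5 mo, none in the 3 youngest ovaries, and at most 4 reads in any library of another organ. UID-14125 (chr1:72542768-72547768, minus strand) had 2 to 6 reads in the ovaries of 8-8.7 mo, 6 and 14 at 16.5 mo and none at 2.2-3.2 mo, and 13 reads over 6 of 9 female lungs. It also had 12 reads over 5 of 9 testes. In uteri, UID-14135 (chr1:11615564-11619353, minus strand, against A830018L16Rik) had 22 reads in the single uterus of 2.2-3.2 mo, and 2, 4 and 6 reads in 3 others. UID-14371, in Adamtsl1 on its strand, had 10 reads over 2 uteri, 6 over 3 female lungs, 2 in an ovary and 2 in a female brain. Further loci with reads in several of these libraries, chosen after their values were seen, were UID-14243, UID-14272, UID-14450 and UID-14081. UID-14243, on the strand of Stk3, a kinase of the Hippo pathway, had 29 of its 57 reads in 5 ovaries, 8 in 2 uteri and 9 in 4 testes. UID-14272, against the strand of Asah2, a ceramidase, had 16 of its 18 reads in 6 ovaries and 2 in a testis. UID-14450, on the strand of Gm33321, had 15 of its 18 reads in 5 ovaries and 3 in 2 uteri. UID-14081, on the strand of Lmbrd1, which takes part in the transport of cobalamin, had 5 reads in 3 uteri, 5 in 3 ovaries and 12 in 4 testes. In male lungs, UID-14274 and UID-14275 had 6 reads each in the lung of mouse 1209. These are overlapping cores in Lipo3, so the reads can be the same ones. UID-14274 also had 7 and 12 reads in 2 ovaries and 5 to 9 reads in 4 testes. The lung of mouse 1303 had reads at UID-14116 alone. UID-14342, on the strand of Aff2, had 15 reads over 6 female lungs and 14 over 6 ovaries. In livers, UID-14172 on the strand of Cmss1 had 6 reads over 2 mice and UID-14111 on the strand of Rabgap1l 4 reads over 2 mice. These last values were near the floor of 3 reads per library taken here as the smallest count told from none. Outside livers, UID-14172 had 5 and 14 reads in 2 testes. UID-14111 had 14 reads over 3 ovaries, more than in livers, and 4 over 2 testes.

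Few members had enough reads to be compared between groups. All 17019 cores entered edgeR's quasi-likelihood test, scaled by mapped reads. A locus was tested if the number of libraries with 10 or more reads reached the size of the smaller group, and p-values were adjusted over all tested loci (Benjamini-Hochberg). In most of these comparisons a locus passed that filter through the group where it was high. The counts of members called are therefore given beside the percent called among all loci tested and are read as descriptions. The adjusted p-values of single loci are read in the same way. A locus without any read in a group could pass only through the other group.

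Between male brains and testes at 7.6 mo, 5 members were tested and all 5 differed (92.1% of the 484 loci tested did, 9.3% higher and 82.9% lower in brains). UID-14116 was higher in brains (log2 fold change 2.32, SE 0.602, adjusted p = 0.00014), 1.71 ± 0.224 against 0.341 ± 0.243 RPM, and UID-14377 was at least 5.77-fold higher, taking 3 reads in the smallest testis library as the floor (adjusted p = 2.1e-11). UID-14094, UID-14239 and UID-14128 were lower in brains, at least 19.8-fold, 16.2-fold and 8.06-fold (adjusted p = 1.1e-14, 3.9e-13 and 2.9e-11). Over all loci tested the median log2 fold change was -7.42.

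Between male lungs (n = 2) and testes (n = 3) at 7.6 mo, 5 members were tested and 5 differed (93.1% of 729 loci, 5.35% higher and 87.8% lower in lungs). UID-14116 was 3.98-fold higher in lungs (log2 1.97, SE 0.658, adjusted p = 0.0034). This call was lost with DESeq2 (adjusted p = 0.14), without mouse 1303 (adjusted p = 0.48) and within the 2 mice that gave both organs (adjusted p = 0.35). UID-14094, UID-14239, UID-14128 and UID-14516 were lower in lungs, at least 10.9-fold, 8.92-fold, 4.43-fold and 2.49-fold (adjusted p from 3.3e-08 to 0.00037). With the animal as a block 2 of the 5 calls were left, since UID-14128 (adjusted p = 0.30) and UID-14516 (adjusted p = 0.39) were lost as well. Only 2 mice gave both organs. The fitted log2 fold changes with and without the block were -7.40 and -7.41 at UID-14128, -6.85 and -6.59 at UID-14516, and 2.66 and 1.97 at UID-14116.

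In livers against testes over 3 age groups (9 of each), 2 members were tested and 1 differed (96.3% of 351 loci, 4.56% higher and 91.7% lower in livers). UID-14239 was at least 6.11-fold lower in livers (adjusted p = 1.4e-09). UID-14116 had 0.281 ± 0.155 RPM in livers and 0.293 ± 0.155 in testes (log2 -0.10, SE 0.331, adjusted p = 0.77), but with library sizes scaled to the L1 reads by TMM it was higher in livers (log2 1.54, adjusted p = 7.9e-05), so its direction depended on the scaling. UID-14094 missed the filter because the testis of mouse 1071 had 9 reads. Against the liver floor of 3 reads its mean of 1.39 RPM in testes was at least 8.29-fold higher.

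In females, brains and ovaries (9 of each) differed at 1 of 2 members tested (58.8% of 85 loci, 24.7% higher and 34.1% lower in brains). UID-14377 was at least 2.30-fold higher in brains than the ovary floor (adjusted p = 6.2e-08), with reads in 9 of 9 brains and 0 of 9 ovaries. UID-14116 had 1.38 ± 0.437 RPM in brains and 1.32 ± 0.761 in ovaries (log2 0.13, SE 0.363, adjusted p = 0.79), and was called higher in brains by DESeq2 (log2 0.63, adjusted p = 0.049). Between lungs and ovaries the only member tested, UID-14116, was lower in lungs (0.394 ± 0.314 RPM, log2 -1.70, SE 0.510, adjusted p = 0.0054), where 51.2% of 80 loci were called (23.8% higher and 27.5% lower). Its values in the 2 organs overlapped. Between uteri and ovaries UID-14116, again the only member tested, was not called (1.10 ± 0.660 RPM in uteri, log2 -0.49, SE 0.550, adjusted p = 0.46), while 42.2% of 128 loci were (8.59% higher and 33.6% lower). Its unadjusted p was not under 0.05, and DESeq2 did not call it.

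Without the filter on low counts more members could be tested. In livers against testes 37 of 231 members were then lower and none higher (33.3% of 8036 loci called). In brains against testes 13 of 151 members were called, 11 of them lower (22.2% of 5657), and in lungs against testes 5 of 128 (14.5% of 5138). In females 8 of 137 were called between brains and ovaries (12.5% of 4137), 2 of 111 between lungs and ovaries (5.8% of 3155) and 3 of 93 between uteri and ovaries (3.04% of 3096). Except between uteri and ovaries, the share of members called was below that of all loci, and the members also had fewer reads per locus than the loci of the non-intact list. Whether the lower share goes beyond the lower counts was not tested.

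With age, no member was called by edgeR in the 6 comparisons made, which were 2 in testes and 1 each in livers, ovaries, female brains and female lungs. Uteri, livers of 1.9-3.6 mo and females of 2.2-3.2 mo were not compared by age. From 1.9-3.6 to 7.6 mo in testes, 7 members were tested and 0% of 756 loci were called, with 1 member at an unadjusted p under 0.05 and none with DESeq2. That member was UID-14239, at 0.645 ± 0.601 and 1.56 ± 0.428 RPM (log2 1.26, SE 0.562, adjusted p = 0.62). From 7.6 to 22.3 mo in testes, 5 members were tested, 0.262% of 762 loci were called, and UID-14239 was again the 1 member under an unadjusted p of 0.05, now lower (0.860 ± 0.322 RPM, log2 -0.86, SE 0.412, adjusted p = 0.41), with none called by DESeq2. UID-14116, the 1 member tested in livers of 22.3 against 7.6 mo, had 0.288 ± 0.121 and 0.385 ± 0.203 RPM (adjusted p = 0.67; 30.5% of 59 loci were called, 15.3% in each direction). Its unadjusted p was not under 0.05, and DESeq2 did not call it.

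From 8-8.7 to 16.5 mo, UID-14116 had 1.50 ± 0.458 and 1.97 ± 0.713 RPM in ovaries (adjusted p = 0.87), 1.69 ± 0.328 and 1.47 ± 0.170 in brains (adjusted p = 0.76) and 0.418 ± 0.413 and 0.270 ± 0.111 in lungs (adjusted p = 0.87). In ovaries its direction depended on the scaling, with a log2 fold change of 0.39 by mapped reads, -0.38 with TMM and -0.38 with DESeq2. In brains the value was -0.20 by mapped reads, -1.16 with TMM and -1.05 with DESeq2. UID-14439 in ovaries (adjusted p = 0.88) and UID-14377 in brains (adjusted p = 0.83) were tested as well. The direction of UID-14439 turned in the same way, from a log2 fold change of 0.48 by mapped reads to -0.16 with TMM and -0.18 with DESeq2. Among all loci tested, 0% were called in ovaries, 0% in brains and 1.89% in lungs, and among the members tested none had an unadjusted p under 0.05 and none was called by DESeq2. Without the filter no member was called by age or sex, at 0% (7.6 against 1.9-3.6 mo) and 0.12% (22.3 against 7.6 mo) of all loci in testes, 1.38% in livers, 0.133% in ovaries, 0.0433% in female brains, 0.329% in female lungs, and 0.455% and 1.46% between the sexes in brains and lungs. Groups of 2 and 4 mice leave wide errors on these values (SE 0.690 on the log2 scale for UID-14116 in ovaries). As a description, the summed level of the members in ovaries was 1.54 ± 0.999 RPM at 2.2-3.2 mo (n = 3), 2.95 ± 0.500 at 8-8.7 mo (n = 4) and 4.27 ± 1.24 at 16.5 mo (n = 2), and 7.54 ± 2.52, 10.1 ± 2.76 and 7.98 ± 0.623 RPM in testes from the youngest to the oldest group. Over the 232 loci tested in ovaries of 16.5 against 8-8.7 mo, the median log2 fold change was 0.64. The share of all L1 reads on members in ovaries was 0.184% ± 0.102, 0.342% ± 0.0408 and 0.443% ± 0.117 from the youngest to the oldest group. The young female group contains mouse 1540, whose ovary had 0.390 RPM, while the ovaries of the other mice had 2.10 and 2.14 RPM. Its age in a supplement differs from that of its label, and both ages lie within this group.

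Between the sexes, UID-14116 had 1.69 ± 0.328 RPM in female and 1.71 ± 0.224 in male brains, and UID-14377 had 0.609 ± 0.216 and 0.596 ± 0.331 (log2 -0.02, SE 0.321 and log2 0.01, SE 0.538, both with adjusted p = 0.98). Neither was called by DESeq2 or had an unadjusted p under 0.05, while 11% of 146 loci were called (3.42% higher and 7.53% lower in females). In lungs UID-14116 had 0.418 ± 0.413 RPM in females and 1.36 ± 0.640 in males (log2 -1.68, SE 0.940, adjusted p = 0.24, 16.4% of 110 loci called, 3.64% higher and 12.7% lower in females), and the groups overlapped. It was not called by DESeq2 and its unadjusted p was not under 0.05.

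At 12.8 mo the authors counted the same members over other windows. On the intact-ORF2 list the windows had long flanks (medians of 4204 bases upstream and 1195 downstream, 10398 bases in all), and the 404 members that also stood on the non-intact list had a second window with short flanks (300 and 500 bases). In the 3 testes these 404 members had 6228, 6314 and 7386 reads in the long windows and 136, 20 and 125 in the short ones. In brains they had 769, 725 and 684 against 12, 24 and 32, in lungs 1018, 798 and 1059 against 18, 6 and 2, and in livers 408, 202 and 213 against 0, 4 and 6. Over the 12 libraries the short windows held 385 reads and the long ones 25804, and in none of the 4848 pairs of a member and a library did the short window hold more.

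**Figure D5:**
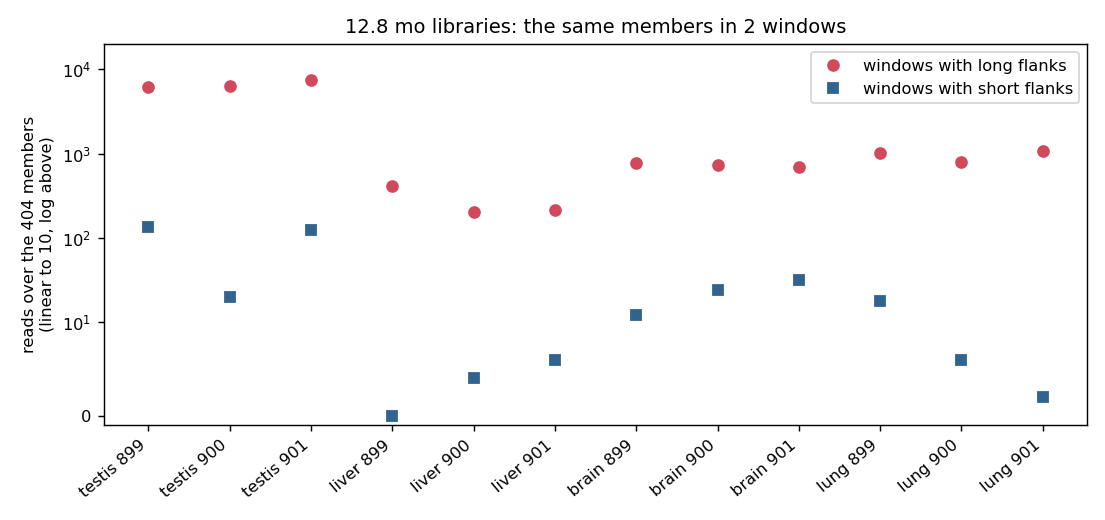
Reads summed over the 404 members with both windows (y axis, linear to 10 and logarithmic above) in each library of 12.8 mo (x axis, organ and mouse), in windows with long flanks (circles) and with short flanks (squares). Every library has more reads in the long windows, between 202 and 7386 against 0 to 136.

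Most of the reads in the long windows lay at a few loci with an annotated exon beside the L1. A same-strand exon fell in the long window of 39 members (18 in the windows of the other ages), and those 39 held 79.4% of the 27951 reads over all 560 members. UID-14206 (chr3:79635112-79640112, plus strand) had 3008, 3986 and 3664 reads in testes, in a window that reached exons of 4930579G24Rik, and no read in any of the 56 libraries of other ages. UID-14105 (chr1:175817409-175822397, plus strand), with exons of Wdr64, had 2045, 1756 and 2316 reads in testes and 4 at the other ages. UID-14369 (chr4:72543801-72548800, plus strand), with exons of Gm11235, had 342, 274 and 384 in lungs and 2 at the other ages. These 3 loci, chosen after their values were seen, held 42.1%, 22.0% and 8.46% of the reads, and each had 0 reads in its short window. Levels at 12.8 mo are therefore not set beside those of the other ages. The leading members are given by organ with this limit. UID-14239 had 365, 75 and 321 reads in testes and none in other organs, UID-14094 had 202, 58 and 178 in testes and none in others, and UID-14128 had 72, 68 and 136 in testes, 4 in livers and 2 in lungs. These are counts in the long windows. In its short window UID-14239 had 98 reads over the 12 libraries, against 761 in the long one. UID-14377 had 12, 8 and 10 reads in brains and none in the other organs, and UID-14116 had reads in every organ, with 78, 44 and 32 in brains, 18, 76 and 100 in lungs, 18, 8 and 6 in livers and 24, 16 and 12 in testes. The long windows of UID-14116 (an exon of Gm38019) and UID-14128 hold an exon of the same strand and neither locus had a short window, so the part of these exons in their reads was not tested. UID-14439, which led in ovaries after UID-14116, had up to 22 reads in a testis and 16 in a lung in the long windows, and none in the short ones.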

How the data were processed

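Per the study's methods, strand-specific paired-end reads were aligned by the authors with Bowtie to mm10, kept when they had a single location, and stripped of duplicates. The deposited values are raw counts of reads per L1 window (bedtools) and the deposited fraction of the window covered. The plus-strand table of 1 brain (mouse 1325) was not named as stripped of duplicates. Mapped reads per library were recovered from the deposited counts and the authors' tabulated FPKM (reads per M mapped reads, divided by 6 kb). For 5 libraries of 22.3 mo the column of another animal of the same group matched the counts and was used, and for 1 liver the number rests on 1 locus. The uteri of mice 1534 and 1324 gave the same number of mapped reads (26.8 M), so the RPM of 1 of them may rest on the size of another library.

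The 14 comparisons used edgeR 4.0.16 in R 4.3.3 (adjusted p threshold 0.05), checked on simulated data, with DESeq2 1.42.0 as an alternative. Replicates were separate mice. The animal number in the labels shows which organs came from 1 mouse, so these pair the samples, and deviations of such organs correlated between -0.281 and 0.523. The main fits had no animal block and so did not use this pairing, which entered only as an alternative. Age group was a covariate in livers against testes and in the comparisons between female organs. Tables were made with Python 3.11.15 and pandas 2.3.3, and gene overlaps with GENCODE M21. Named loci were the 3 members with the highest mean RPM in each organ and the 3 with the largest called change in each direction. Members, lists and tests were chosen with earlier results of these data known. Reading frame lengths and the uniqueness of 100-base stretches, planned from a genome, were not computed, and 1 sequence feature of some members is not reported here. Floors cover counting error only.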

Additional observations from a re-analysis of the deposited data

Results flagged for a closer look

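At 12.8 mo, in windows that no comparison used, UID-14206 had 11780 reads over the 12 libraries, UID-14105 had 6155 and UID-14369 had 2364, against 0, 4 and 2 reads over the 56 libraries of other ages in their narrower windows. All 3 long windows hold a same-strand exon. The short windows of the same 12 libraries, which contain the L1 core, held 0 reads at each of the 3 loci, so these reads were counted outside them. In 14 sets of 4 libraries of females of 8-8.7 mo (summed levels, numbers of members and leading members, by organ), no library stood apart by Dixon's criterion.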

How the results depend on the processing

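Of the 156 alternative counts of called members, 144 stayed within 1.5 times the reported count. This share says little about stability. The reported count was 0 in all comparisons of ages and sexes and in uteri against ovaries, and at most 5 elsewhere. In livers against testes (1 member) the count became 0 with members of the intact-ORF2 list alone, 2 with TMM, 37 without the filter and 1 to 2 when single mice were left out (2 without mouse 1071 or 831). In brains against testes (5) it became 13 without the filter, and 5 to 6 when single mice were left out (6 without mouse 1305). In lungs against testes (5) it became 3 on the list alone and 2 with the animal as a replicate block, and 4 to 5 when single mice were left out. In females it became 8 without the filter and 2 with DESeq2 for brains against ovaries (1), 2 without the filter for lungs against ovaries (1) and 3 for uteri against ovaries (0). Leaving out single mice left 1, 1 and 0 in these 3 comparisons and 0 in all comparisons of ages and sexes. In lungs against testes the count was 4 with DESeq2, and without mouse 1303. The replicate block, which pairs organs of 1 animal, changed no other call. UID-14116 in livers against testes turned to 1.54 (log2) with TMM, which moved the median of all loci from -7.76 to -7.14, and the cause was not tested. In females of 16.5 against 8-8.7 mo TMM moved that median from 0.83 to -0.01 in brains and from 0.64 to -0.03 in ovaries. Joining the FPKM columns of 22.3 mo by animal number, added after the data had been seen, left the counts at 1, 0 and 0. In 66.3% of the pairs of a member and a library with reads there were 1 or 2 reads.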
